A study of Sus scrofa with 6 samples.

Results

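In the backfat methylomes of Rongchang (RBF) and Landrace (LBF) pigs, 1338 intergenic differentially methylated regions (DMRs) had a higher read depth in RBF. They comprise every unique DMR that the deposited annotation calls intergenic and whose mean depth over the RBF libraries was above the mean over the LBF libraries. They made up 14.4% of the 9300 intergenic DMRs, 62.3% of the 2147 DMRs of any annotation that were higher in RBF, and 9.45% of all 14163 DMRs. The shares depend on the scaling between libraries: with every library set to the same median over all DMRs, 3771 intergenic DMRs (40.5%) were higher in RBF, and the median log2 fold change of the 1338 was 2.94 in place of 1.53. The other 7962 intergenic DMRs were lower in RBF and served for comparison. The regions were thus chosen by the depths of the breeds, so the direction and size of the difference at these regions are descriptions and were not tested.

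The libraries came from backfat, the subcutaneous fat of the back, of 3 female Rongchang pigs, a fatty Chinese breed, and 3 female Landrace pigs, a lean breed, all slaughtered at 210 days, with a separate animal behind each library and no other treatment named in the labels. Methylated DNA immunoprecipitation sequencing (MeDIP-seq) captures DNA through its methylated cytosines, and the depth over a CpG therefore follows its methylation. The value of a DMR was the normalized read depth of a library averaged over the CpGs of that DMR. Whole backfat was measured, so a different mix of cell types and a different methylation per cell cannot be told apart.

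Most CpGs of mammalian genomes outside promoters and CpG islands are methylated, and intergenic DNA carries much of this methylation. Losses of it are often seen at distal regulatory elements that are active in a cell type, whereas its maintenance keeps many repeats silent. A MeDIP signal also depends on how many CpGs a fragment carries, because the antibody binds clustered methylated cytosines best.

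The median depth over the 1338 DMRs was 30.5, 31.5 and 32.6 in RBF replicates 1, 2 and 3, against 9.40, 10.3 and 10.9 in LBF replicates 1, 2 and 3. All RBF medians lay above all LBF medians, and RBF and LBF libraries overlapped in none of the regions, as in 100% of all DMRs of the table. Mean depths ran up to 3382 in RBF, with a lowest value of 10.3, and between 0.392 and 1044 in LBF. The median ratio of the RBF mean to the LBF mean was 3.02. It was over 10 in 85 regions (6.35%) and under 2 in 228.

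On the scale of log2(depth + 1), the RBF over LBF fold change had a median of 1.53 and ranged between 0.28 and 4.69. It was above 1 in 1083 regions, above 2 in 379, above 3 in 87 and above 4 in 12. With limma, 1327 of the 1338 passed an adjusted p of 0.05, where 99.5% of all 14163 DMRs passed in either direction and 15.1% passed as higher in RBF. These counts say nothing further about the regions, because the table lists only DMRs already called on the same animals.

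**Figure D1:**
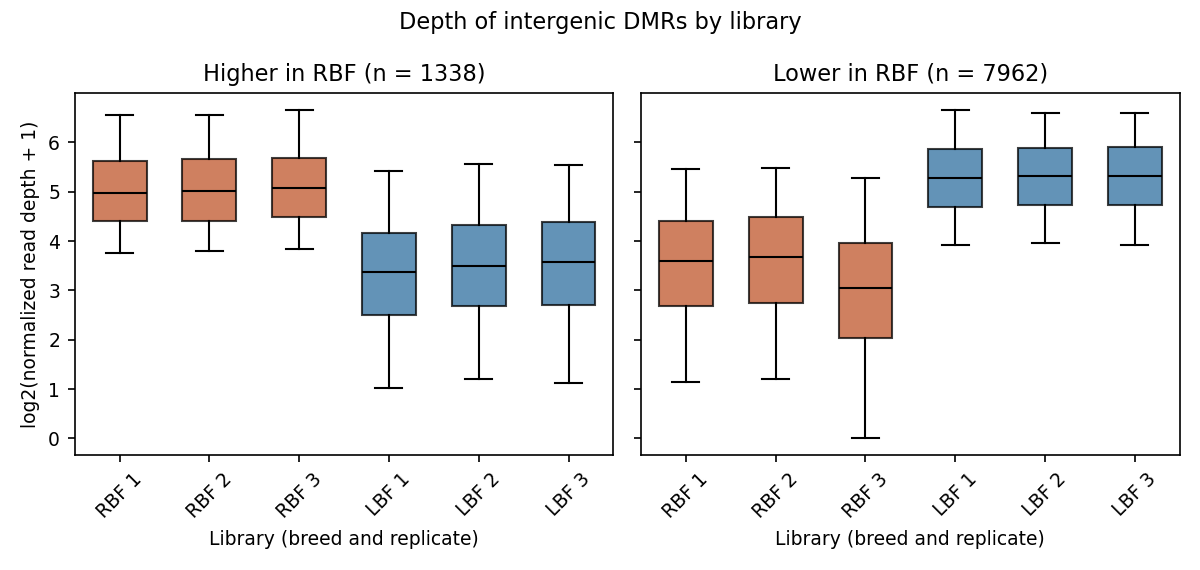
Normalized read depth of each library, as log2(depth + 1), over the 1338 intergenic DMRs higher in RBF (left) and the 7962 lower in RBF (right). Boxes show the quartiles and the median, whiskers the 5th and 95th percentiles. In the left panel the RBF medians are 30.5 to 32.6 in linear depth and the LBF medians 9.40 to 10.9, and in the right panel RBF replicate 3 lies below the other RBF libraries.

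Relative to its mean, the breed with the lower depth was the more variable. The coefficient of variation divides the SD by the mean, so a low depth alone can raise it. The median coefficient of variation between animals was 11.3% in RBF and 26.9% in LBF at these regions, against 41.8% in RBF and 11.5% in LBF at intergenic DMRs lower in RBF. No RBF library was at a depth of 0 in any of the 1338 regions, which follows from their selection and from breeds that do not overlap. Likewise, no LBF library was at 0 in the DMRs lower in RBF, where 230, 239 and 420 were at 0 in RBF replicates 1, 2 and 3. Of the 1338 regions, 39, 44 and 43 were at 0 in LBF replicates 1, 2 and 3, and 94 had at least 1 LBF library at 0. In 32 regions 2 LBF libraries were at 0 while the other read between 1.17 and 13.6, and none had all LBF libraries at 0.

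Among the RBF animals, replicate 3 gave the highest depth in 47.7% of the regions, replicate 2 in 29.2% and replicate 1 in 23.1%. At intergenic DMRs lower in RBF the same replicate 3 gave the lowest RBF depth in 58.8%. The contrast between the breeds was thus wider in this animal in both directions, and its part in the results was not tested beyond leaving the library out, which changed the median log2 fold change to 1.51.

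The regions were short and held few CpGs. Their median length was 133.5 bp, against 154 bp in intergenic DMRs lower in RBF, and their median number of CpGs was 6, against 7. The minimum of 5 CpGs that the table allows was met exactly by 559 regions (41.8%), against 21.8% of the DMRs lower in RBF. At least 10 CpGs were present in 79 regions (5.90%), against 2366 (29.7%).

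Read the other way, the share of intergenic DMRs that were higher in RBF decreased with each step in CpG number. It was 24.4% at 5 CpGs (exact 95% binomial interval 22.6 to 26.2), 19.4% at 6 and 17.1% at 7. It was 9.65% at 8 to 9 CpGs, 3.61% at 10 to 14 and 2.42% at 15 or more (1.46 to 3.75). With equal library medians the share was 54.6% at 5 CpGs and 15.4% at 15 or more. These intervals cover counting error only, as if DMRs were independent. DMRs that were not intergenic followed the same order, with 27.8% at 5 CpGs and 3.71% at 15 or more, so the gradient was not particular to intergenic DNA. It was also present within chromosomes, where the share was higher at 5 CpGs than at 10 or more in 19 of 19, with 18.3 to 33.0% at 5 CpGs and 1.06 to 7.41% at 10 or more.

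**Figure D2:**
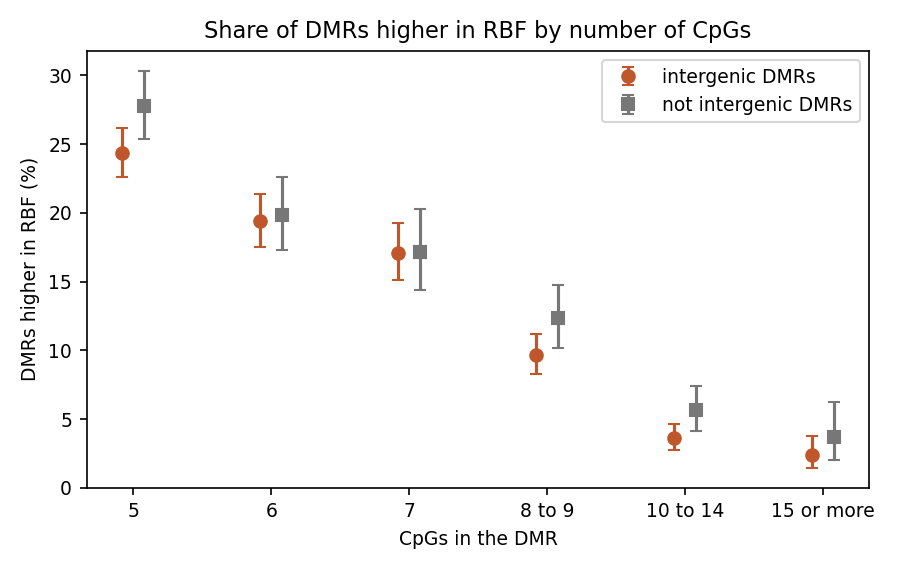
Share of DMRs with the higher depth in RBF (%) by the number of CpGs in the DMR, for intergenic DMRs (circles) and DMRs that were not intergenic (squares). Bars are exact 95% binomial intervals. The intergenic share is 24.4% at 5 CpGs and 2.42% at 15 or more.

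CpG density showed a similar tendency up to 8 CpGs per 100 bp, and not beyond. DMRs with up to 3 CpGs per 100 bp were higher in RBF in 24.4% of cases, against 9.35% of those with 6 to 8. Above 8 the share was higher again, at 173 of 1445 intergenic DMRs, and at 15.2% of DMRs that were not intergenic. The median density was 4.61 CpGs per 100 bp in the regions higher in RBF and 5.39 in those lower in RBF. The size of the fold change was nearly unrelated to CpG number within the regions (Spearman's rho 0.06 across 1338 regions, which share the same 6 libraries).

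CpG islands, the CpG-dense stretches that mark many promoters, were rare on both sides. An island was overlapped by 9 of the regions (0.673%), against 63 (0.791%) of those lower in RBF, and an island or its shore by 52 (3.89%), against 338 (4.25%). The island member with the largest fold change, on chromosome 10 (73258211 to 73258269, 7 CpGs), had depths of 71.8, 85.2 and 55.3 in RBF and 15.8, 1.29 and 17.3 in LBF. A neighbour 21 bp away (73258075 to 73258190) overlapped an island too, with 66.8, 65.3 and 72.3 in RBF and 21.7, 0 and 28.1 in LBF. At both, LBF replicate 2 stood far below the other LBF libraries, and beside a log2 fold change of 2.99 at each the ratio of the mean depths was 6.18 and 4.10. The second of them did not pass limma (log2 fold change 2.99, standard error 1.25). Next by fold change among the 9 came regions on chromosome 16 (85477570 to 85477641, log2 fold change 1.51), chromosome 3 (14466593 to 14466671, 1.19) and chromosome 2 (3381173 to 3381224, 1.08).

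A small number of regions held many CpGs, against the general pattern in CpG number. They were not dense in CpGs as a group. The 79 regions with at least 10 CpGs had a median of 3.92 CpGs per 100 bp, against 4.61 in all 1338. Of the 19 with 15 or more CpGs, the largest held 48 CpGs over 1961 bp on chromosome 3 (22239723 to 22241683). On chromosome 4, 45 CpGs over 1720 bp (139085036 to 139086755) had 45.8, 42.7 and 47.4 in RBF, against 17.6, 24.2 and 23.3 in LBF. On chromosome 14, 41 CpGs over 1672 bp (143564743 to 143566414) had 22.3, 24.1 and 23.7 in RBF, against 5.67, 8.52 and 9.06 in LBF. RBF and LBF libraries did not overlap in any of these, as in 100% of all DMRs of the table.

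The 10 largest fold changes all came from regions with at least 1 LBF library at or near 0. The top region (chromosome 10, 44661197 to 44661315, 5 CpGs) had depths of 53.3, 40.9 and 64.5 in RBF and 7.75, 0 and 0 in LBF, a log2 fold change of 4.69 (standard error 0.85). The next (chromosome 10, 22228191 to 22228328, 6 CpGs) had 33.5, 38.8 and 49.9 in RBF and 2.74, 0 and 0.395 in LBF, a log2 fold change of 4.57. In 7 of the 10, 2 LBF libraries were at 0, so that these values rest on few LBF reads.

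A region on chromosome 10 (14341463 to 14341632, 9 CpGs) had 50.3, 65.8 and 54.2 in RBF and 13.6, 0 and 0 in LBF. It lay 2.68 kb from a promoter DMR of RGS7, a regulator of G protein signalling, which went the other way, with a mean of 6.72 in RBF and 18.7 in LBF. On the X chromosome, 144215089 to 144215186 had 44.5, 44.0 and 51.9 in RBF and 7.52, 0 and 0 in LBF, 49.6 kb from a DMR of the protein kinase gene PRKX that was also higher in RBF. The largest ratio of means in these 10 was 68.0, at chromosome 5 (85446008 to 85446156, 8 CpGs), with 30.1, 22.1 and 27.8 in RBF and 1.17, 0 and 0 in LBF. The other 5 lay on chromosome 2 (26932245 to 26932431), chromosome 18 (2406736 to 2406858), chromosome 5 (11211723 to 11211997 and 80431300 to 80431774) and chromosome 6 (27647226 to 27647298), with log2 fold changes of 4.26 to 4.51.

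Very high depth was found at few of the regions. The mean depth in the higher breed was over 500 in 8 of the 1338 (0.598%), against 5 of the 7962 lower in RBF (0.0628%), whereas it was over 100 in similar shares (4.11% and 4.40%). With DMRs at most 100 kb apart joined, the 8 lay at 4 loci, of which a block on chromosome 3 held 4 and a stretch of chromosome 6 held 2, and the 5 lower in RBF lay at 4 loci as well. The deepest was on chromosome 12 (48927556 to 48927981, 12 CpGs), with 2750, 3394 and 4001 in RBF and 1077, 888 and 1167 in LBF. It lay 49.2 kb from a DMR of ABR that was lower in RBF. On chromosome 3, 142500395 to 142500594 had 990, 1177 and 1195 in RBF and 360, 231 and 632 in LBF, and the LBF libraries spread more widely there than the RBF libraries. Copy number and repeat content were not analysed here.

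At the other end, the smallest differences were without overlap too, as were 100% of all DMRs of the table. The member closest to the limit (chromosome 14, 140285432 to 140285739) had 20.3, 20.8 and 20.9 in RBF and 16.3, 16.1 and 18.2 in LBF and was among the 11 that did not pass limma. The next (chromosome 4, 16838069 to 16838086) had means of 15.6 in RBF and 10.4 in LBF. Just outside, chromosome 9 (135699634 to 135699681) had means of 7.99 in RBF and 12.3 in LBF, and chromosome 3 (39378192 to 39378226) had 7.95 in RBF and 12.8 in LBF. No intergenic DMR lay between these differences of 3.82 and -4.31 in depth.

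The regions were spread over all 19 chromosomes of the table, with unequal shares. On the X chromosome 84 of 892 intergenic DMRs were higher in RBF (9.42%, interval 7.58 to 11.5), against 14.9% on the autosomes (14.2 to 15.7). The X share was the lower one in every class of CpG number, with 18.6% against 24.8% at 5 CpGs and 1.68% against 3.50% at 10 or more, although the intervals of X and autosomes overlapped within each class. DMRs of the X that were not intergenic had a similarly low share (10.6%). All animals were female. The highest share was on chromosome 3 (78 of 398, 19.6%), followed by chromosomes 9 (18.0%) and 10 (17.9%), and the intervals of these chromosomes overlapped widely. With equal library medians chromosome 3 was still highest (52.3%) and X lowest (25.7%), but chromosome 16 (46.6%) came next and chromosome 10 (43.0%) was 12th from the lowest of 19. Without the 6 regions of its largest block the share on chromosome 3 was 18.4%.

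**Figure D3:**
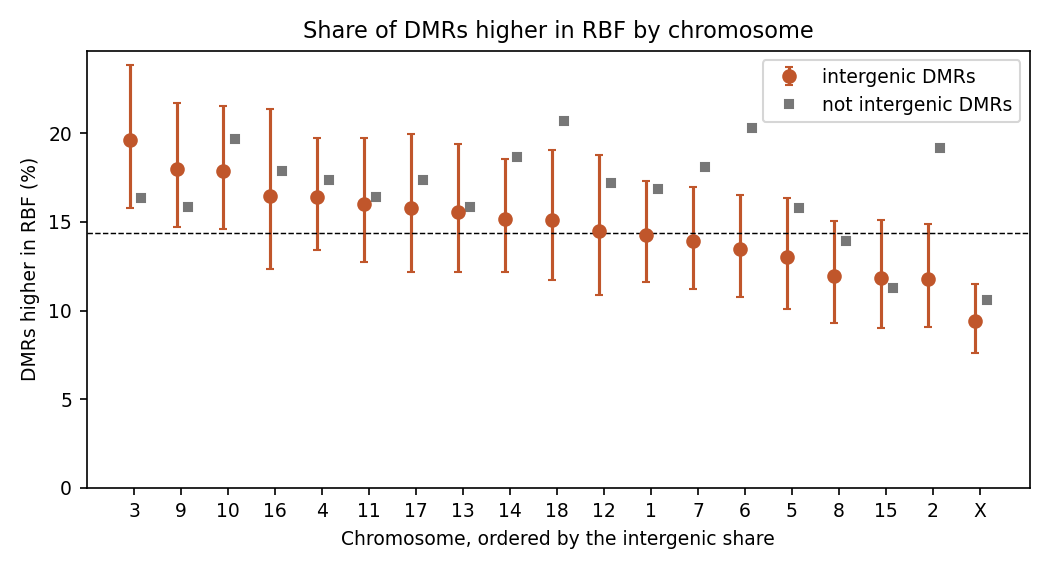
Share of DMRs with the higher depth in RBF (%) on each chromosome, for intergenic DMRs (circles, with exact 95% binomial intervals) and DMRs that were not intergenic (squares). The dashed line is the share over all intergenic DMRs, 14.4%. Chromosome 3 is highest at 19.6% and X lowest at 9.42%.

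Most of the regions had a DMR of the opposite direction as their nearest neighbour, as most DMRs of the table were lower in RBF. A neighbour higher in RBF was still more frequent than over all DMRs. The nearest other DMR of any annotation was higher in RBF for 302 of the 1338 (22.6%), against 13.4% for the intergenic DMRs lower in RBF and 15.2% of all DMRs. The gap was widest under 2 kb, with 35 of 96 (36.5%) against 7.63%, and at 200 kb or more the shares were 13.9% and 13.1%. With neighbours under 2 kb left out, so that pieces of 1 region were not counted, the nearest DMR was higher in RBF for 288 (21.5%). Neighbours within a block are not independent of each other, and no test was made over regions.

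**Figure D4:**
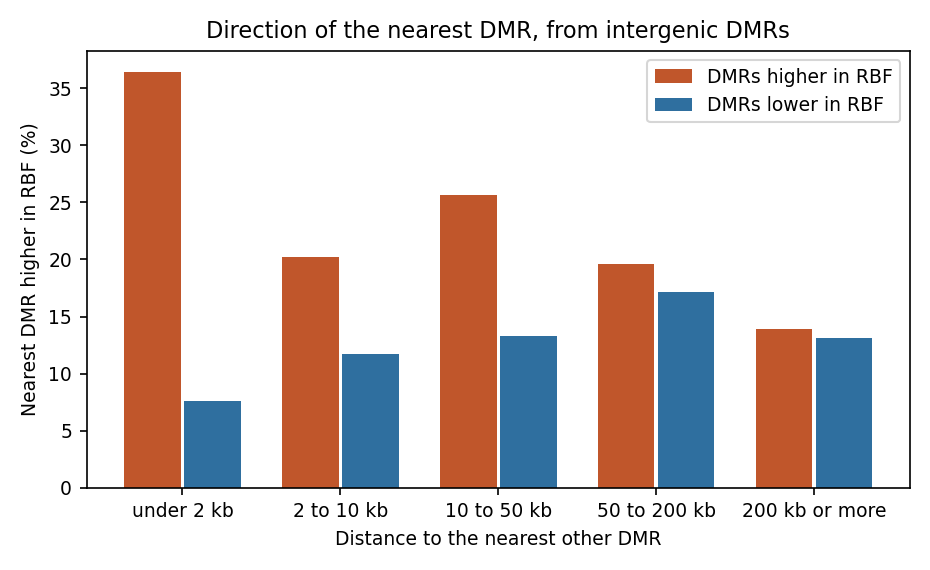
Share (%) of intergenic DMRs whose nearest other DMR was higher in RBF, by the distance to it, for the 1338 DMRs higher in RBF and the 7962 lower in RBF. Under 2 kb the shares are 36.5% and 7.63%, and at 200 kb or more 13.9% and 13.1%.

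Most of the regions stood apart from each other. Another of the 1338 lay within 10 kb for 95 and within 50 kb for 287, while an intergenic DMR lower in RBF lay within 10 kb for 246 and within 50 kb for 635. The regions numbered 1338 in all and the lower DMRs 7962, so these counts do not compare like densities. Opposite directions met at very short range in some places. On chromosome 14, 24735636 to 24736454 (12 CpGs) had 17.8, 18.7 and 18.3 in RBF and 11.4, 14.7 and 11.4 in LBF. The adjoining DMR at 24736457 to 24736671 had 14.5, 3.38 and 1.22 in RBF and 66.1, 79.9 and 57.3 in LBF. Thus the direction turned within 3 bp in the table, at a modest difference on the first side and a large one on the second.

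When regions at most 50 kb apart were joined, 1051 remained single, 109 blocks held 2 regions, 16 held 3, and 4 blocks held 4 or more. A block on chromosome 3 (22229632 to 22244821) put 6 regions and 130 CpGs into 15.2 kb. Its 48-CpG region had 576, 487 and 720 in RBF and 94.3, 150 and 109 in LBF. The 5-CpG region at 22241782 to 22241899 had 2002, 1668 and 1300 in RBF and 358, 470 and 372 in LBF. RBF and LBF libraries did not overlap in these, as in 100% of all DMRs of the table. The 6 log2 fold changes of the block ran between 1.62 and 2.81.

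The second block, on chromosome 10 (22228191 to 22279320), held 6 regions over 51.1 kb with log2 fold changes of 2.08 to 4.57. Its deepest region (22239992 to 22240387, 16 CpGs) had 217, 239 and 315 in RBF and 36.3, 16.3 and 7.49 in LBF. It enclosed a pair of DMRs in an intron of LCMT1, the methyltransferase that modifies the catalytic subunit of protein phosphatase 2A, and these were higher in RBF as well, with means of 47.1 in RBF and 9.64 in LBF at one and 687 in RBF and 165 in LBF at the other. The block on chromosome 3 lay 19.9 kb from a DMR that the table also gives to LCMT1, with 30.7, 30.8 and 41.4 in RBF and 7.70, 12.8 and 9.43 in LBF. The table pairs LCMT1 with 2 transcripts on 2 chromosomes, while the RefSeq gene table of a later assembly, used for names only, lists 1 entry. Whether reads were shared between these places was not tested, and the values of both blocks are uncertain to that extent.

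A block of 5 regions on chromosome 17 (32822768 to 32874653, 51.9 kb) was shallow, with mean depths of 12.1 to 24.5 in RBF and 0.395 to 6.30 in LBF. The region at 32829550 to 32829636 had 15.2, 20.9 and 15.7 in RBF and 0, 1.55 and 0 in LBF. The nearest gene with a DMR, 57.0 kb away, was KIZ, which encodes a centrosomal protein, and that DMR was lower in RBF. On chromosome 6, 4 regions between 143350013 and 143453972 were interspersed with 5 intergenic DMRs lower in RBF, of which 4 lay in a row. In that stretch the region at 143412241 to 143412477 had 620, 801 and 892 in RBF and 199, 232 and 288 in LBF, so very deep DMRs of both directions lay side by side. This block was chosen after its values were seen.

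**Figure D5:**
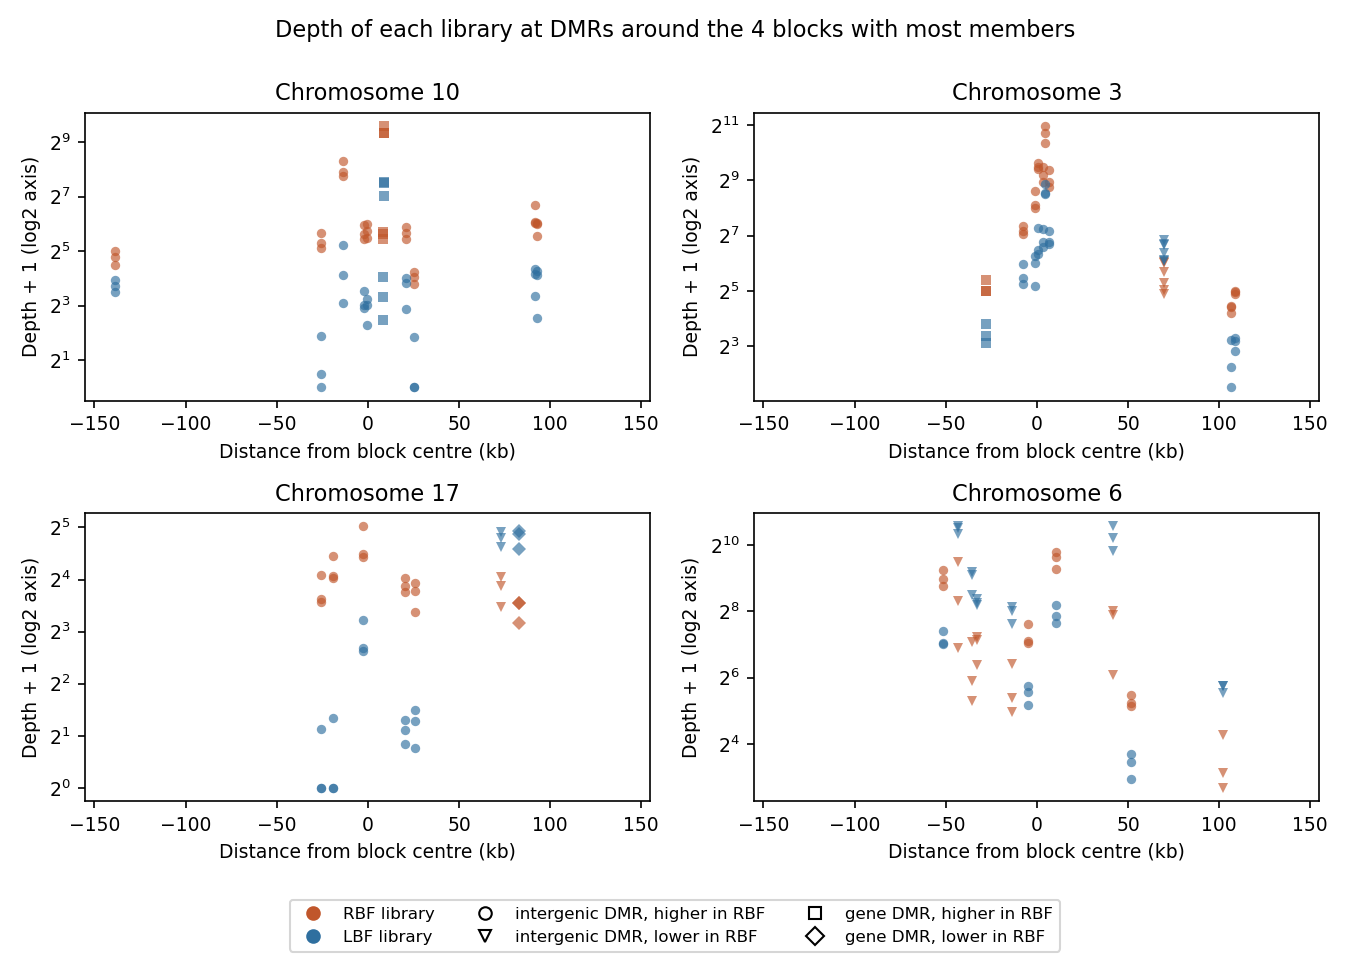
Depth + 1 of each library (log2 axis) at DMRs around the 4 blocks with most regions, by distance from the centre of the block in kb. Circles are intergenic DMRs higher in RBF, triangles intergenic DMRs lower in RBF, squares and diamonds gene DMRs higher and lower in RBF, with RBF libraries in orange and LBF libraries in blue. On chromosomes 10 and 3 the gene DMRs shown are also higher in RBF, whereas on chromosome 6 intergenic DMRs of both directions lie within the block.

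Gene DMRs within 100 kb of the regions were higher in RBF in nearly the same share as all gene DMRs. A DMR in a gene or its flanks lay within 100 kb of 347 of the regions, and 96 of these 532 gene DMRs (18.0%) were higher in RBF, against 16.8% of all gene DMRs. Within 50 kb it was 41 of 233 (17.6%), and within 20 kb 16 of 73 (21.9%). The last share rests on few DMRs.

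From 10 lists of 302 genes of fat metabolism, fat cell differentiation, imprinting, development, immunity, muscle and breed selection, 50 genes held a DMR and 9 of these had one of the regions within 100 kb. Over the whole table this held for 339 of the 2770 genes with a DMR (12.2%), and counts as small as those of single lists were not tested against it. The lists were also chosen with earlier results of these data known. Fatty acid and glycerolipid synthesis gave 4 of its 10 genes with a DMR (AGPAT4, LPGAT1, LPIN1 and SCD5) and imprinted genes 3 of 3 (DLK1, GNAS and GRB10). The factors of fat cell formation gave 1 of 7 (DLK1 again), development 1 of 4 (HOXD10), and muscle and matrix 1 of 6 (FN1). The lists for lipid droplets and lipolysis, fat oxidation, adipokines, immune genes and selected loci gave none of their 5, 7, 1, 2 and 6 genes. The gene's own DMR was lower in RBF for 6 of the 9 and higher for FN1, HOXD10 and SCD5. Only 758 of all 4520 gene DMRs (16.8%) were higher in RBF, so a lower gene DMR was the usual case. The directions at these 9 genes were not tested against that share.

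Near LPIN1, whose product makes diacylglycerol in triglyceride synthesis, the region on chromosome 3 (133614410 to 133614609) had 48.2, 58.6 and 68.2 in RBF and 20.4, 7.52 and 8.90 in LBF. The DMR just downstream of LPIN1, 44.8 kb away, had 20.8, 29.0 and 4.45 in RBF and 71.7, 62.9 and 82.1 in LBF. The directions were opposite, and RBF and LBF libraries were separate at either, as at every DMR of the table.

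LPGAT1, an acyltransferase of phospholipid metabolism, had a DMR of the opposite direction at closer range. Most gene DMRs of the table were lower in RBF. A region on chromosome 9 (144452794 to 144452841) had 17.4, 15.6 and 23.0 in RBF and 2.35, 5.93 and 4.75 in LBF. The LPGAT1 promoter DMR 11.5 kb away had means of 2.19 in RBF and 41.0 in LBF. For AGPAT4, another acyltransferase of glycerolipid synthesis, an 11-CpG region on chromosome 1 (8309242 to 8309435) had 153, 170 and 192 in RBF and 106, 95.4 and 93.2 in LBF, 27.9 kb from an intron DMR lower in RBF. A promoter DMR of the kinase gene MAP3K4, also lower in RBF, lay closer to this region, at 2.24 kb.

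SCD5 encodes a stearoyl-CoA desaturase, which puts the first double bond into saturated fatty acids. The region 73.5 kb from its intron DMR (chromosome 8, 145055072 to 145055205) had 59.2, 55.8 and 62.3 in RBF and 36.6, 31.9 and 36.1 in LBF. The intron DMR itself had 63.4, 58.6 and 74.2 in RBF and 24.7, 28.2 and 32.5 in LBF. Here the intergenic and the gene DMR were alike in level and direction.

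DLK1, an inhibitor of fat cell differentiation, had a region 42.7 kb from its downstream DMR (chromosome 7, 132470132 to 132470213), with 48.8, 63.3 and 49.0 in RBF and 12.7, 17.0 and 18.6 in LBF. Near GNAS, which encodes the stimulatory G protein subunit, the region on chromosome 17 (66441011 to 66441214) had 26.8 ± 2.01 in RBF and 11.4 ± 3.65 in LBF (mean ± SD, n = 3 pigs each). Near GRB10, an adaptor that dampens insulin signalling, it was 62.9, 59.6 and 79.3 in RBF and 27.0, 30.4 and 34.1 in LBF, at a distance of 91.4 kb. The gene DMRs of all 3 were lower in RBF.

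FN1, the gene of the matrix protein fibronectin, had a region with one of the sharpest contrasts in this group (chromosome 15, 130352528 to 130352793), with 22.9, 25.3 and 25.6 in RBF and 1.41, 1.29 and 2.85 in LBF, a log2 fold change of 3.21 (standard error 0.26). The FN1 intron DMR 18.0 kb away differed less, with 27.2, 24.7 and 28.8 in RBF and 15.5, 17.8 and 15.2 in LBF. Near HOXD10, a homeobox factor of body patterning, a CpG island region on the same chromosome (91433844 to 91433907) had 14.7, 13.3 and 17.2 in RBF and 9.40, 7.31 and 7.71 in LBF, 46.2 kb from an exon DMR with means of 14.1 in RBF and 4.96 in LBF.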

How the data were processed

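MeDIP-seq libraries of 3 RBF and 3 LBF pigs were mapped to breed by their labels. The authors aligned paired-end reads with SOAP2 to the pig genome (Sscrofa10.2 per the submitters' processing notes), counted reads at several places once, left out CpGs with little depth, and merged CpGs with a breed difference into DMRs of at least 5 CpGs. The deposited signal is the coverage of a library, as normalized read depth averaged over all CpGs of each DMR. The study describes a scaling by the average reads of a group for profiles along chromosomes. Whether it also holds for this table is not stated. Other numbers that the authors deposited are the coordinates, lengths and CpG numbers. Their p-value and FDR columns hold the authors' own comparison of the breeds and were not used. Sample columns left unused numbered 0.

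Depth times CpGs was a whole multiple of 1 step per library (within 0.01), 1.52, 1.56 and 1.29 in RBF and 1.17, 1.29 and 1.19 in LBF. In such steps, the depths over the CpGs of the 1338 regions summed to 299790, 300297 and 399151 in RBF and to 125758, 126112 and 140861 in LBF, so the LBF values are the less precise. A read covers several CpGs, so no count model was used.

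Depths were fitted with limma 3.58.1 (R 4.3.3) after adding 1 to the depth and taking log2, with a term for breed alone and Benjamini-Hochberg adjustment over all 14163 DMRs, tested on simulated data. The added 1 shrinks fold changes at low depth. Shares have exact 95% binomial intervals (scipy 1.17.1). The members and gene lists were chosen with earlier results of these data known. Named were the 10 largest fold changes, the 5 deepest, the 5 island members with the largest fold change (mean RBF depth of at least 10 for folds), the 3 largest blocks, the nearest member within 100 kb of a DMR of each listed gene, and the members beside the limit. Alternatives were each replicate left out, equal library medians, the scaling removed, filters on depth, CpGs, autosomes and annotation, direction by log mean or median library, pseudocounts of 0.5 and 5, linear depth, a replicate block and other distances. No genome of this build was used, so no sequences are shown.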

Additional observations from a re-analysis of the deposited data

How the results depend on the processing

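Scaling every library to the same median over all DMRs moved the median log2 fold change of all DMRs by 1.41 and put 3771 intergenic DMRs (40.5%) higher in RBF, with a median log2 fold change of 2.94 at the 1338, all of which passed limma. That zero point comes from regions selected because they differ. None of the 1338 turned, which was fixed in advance, since this scaling raised every RBF library and lowered every LBF library. Chromosome 3 stayed highest (52.3%) and X lowest (25.7%) while chromosome 10 moved to the middle (43.0%). The share was 54.6% at 5 CpGs and 15.4% at 15 or more, an alternative chosen after seeing the data. Dividing each library by its step, also chosen after seeing the data, left 1338 and 14.4%, with 1235 past limma and a median of 1.26. With at least 10 CpGs, 79 regions (3.23%) remained higher in RBF and 75 passed limma, with a median of 1.62, and 2445 intergenic DMRs hold that many. A pseudocount of 5 lowered the median log2 fold change to 1.22, by its construction. Leaving out each replicate in turn kept 1338 regions and 14.4%, which follows from breeds that do not overlap, with 1292 to 1325 past limma and medians of 1.43 to 1.55. The replicate numbers name separate animals, and deviations of same-numbered libraries correlated at 0.06, -0.01 and 0.06, so they were not treated as pairs. With the replicate block 1292 passed. A stricter limit on the FDR of the deposited table was to be tried and was not run, since that column belongs to the authors' comparison. With the other alternatives, the count was 1187 to 1338, the share 13.9 to 14.9%, those past limma 1179 to 1337 and the median 1.48 to 1.57. Another region lay within 10 kb for 65 of the 1338 when neighbours under 2 kb were left out, against 95 with them. The LBF depth limits the fold changes, since 94 regions had an LBF library at 0.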
